A study of Mus musculus with 12 samples.

Results

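The urea cycle converts ammonia, the nitrogenous waste of amino acid breakdown, to urea. The 7 genes described here encode enzymes of that cycle and the mitochondrial carriers that feed it, and they were taken as a named list (Cps1, Otc, Ass1, Asl, Nags, Slc25a15 and Slc25a13) from the 27179 genes of a bulk RNA-seq count table, by matching its Entrez identifiers to mouse symbols. They were listed by pathway and not by a cutoff on their expression. All 7 were found and all 7 passed the filter on low counts.

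RNA came from snap-frozen livers of 12 mice, in 4 groups of 3. CD Vec mice ate chow diet (CD) and carried empty vector (Vec). CD c-MET/β-cat mice ate the same chow and carried plasmids for human c-MET and ΔN90-β-catenin (β-cat), a β-catenin that lacks the N-terminal part through which it is normally degraded. LPD Vec and LPD c-MET/β-cat mice received the same injections and ate a low-protein diet (LPD). Per the methods of the study, the plasmids were delivered by hydrodynamic injection into the tail vein together with Sleeping Beauty transposase, which inserts them into the genome of a part of the hepatocytes, so that oncogene-bearing and other cells share each liver. Mice were young adult males by the study's methods, and all groups were harvested when the CD c-MET/β-cat mice reached their end point. The sample labels name liver as the tissue and hepatocyte as the cell type, call the vector controls WT and tie the chow samples to columns named HPD. The RNA was of whole liver, so fewer cells of a type and less RNA per cell cannot be told apart. Albumin (Alb), the main secreted protein of hepatocytes, stood at 73586 ± 7115 (SD, n = 3) CPM (counts scaled to a common library total) in CD Vec and 64072 ± 3747 (SD, n = 3) CPM in CD c-MET/β-cat.

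The cycle starts in mitochondria, where CPS1 makes carbamoyl phosphate from ammonia and bicarbonate, and only while it is bound by N-acetylglutamate, the product of NAGS. OTC joins carbamoyl phosphate to ornithine. The citrulline so formed leaves the mitochondrion in exchange for ornithine through SLC25A15, is condensed with aspartate by ASS1, and is cleaved by ASL to arginine and fumarate. Arginine then yields urea and ornithine. SLC25A13 (citrin) exports the aspartate that ASS1 uses. In healthy liver these enzymes are highest in periportal hepatocytes, whereas glutamine synthetase (Glul), the other route of ammonia removal and a target of Wnt/β-catenin signaling, is restricted to hepatocytes around the central vein.

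Promoter sequences are shown for members with fold changes of opposite sign on CD. The higher mean of Nags there rested largely on 1 mouse, as its values below show. RefSeq windows (GRCm38.p6) were at hand for 5 of the 7 members (Otc, Ass1, Nags, Slc25a15 and Slc25a13), in 6 windows. The bases just upstream of the annotated start are printed for Nags, whose fold change on CD was positive, and for Otc and Ass1, which were lower and act on either side of the mitochondrial membrane. Each is written 5′ to 3′ on the plus strand of the genome, which is the strand of the gene, and capitals mark motif matches. The Nags stretch lies at chr11:102145263-102145512, the Otc stretch at chrX:10252055-10252229 and the Ass1 stretch at chr2:31470020-31470269.
Nags: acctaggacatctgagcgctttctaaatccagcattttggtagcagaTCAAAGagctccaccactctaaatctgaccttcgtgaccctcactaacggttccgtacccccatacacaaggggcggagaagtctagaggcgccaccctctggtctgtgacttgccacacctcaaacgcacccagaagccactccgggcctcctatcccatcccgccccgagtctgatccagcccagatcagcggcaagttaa
Otc: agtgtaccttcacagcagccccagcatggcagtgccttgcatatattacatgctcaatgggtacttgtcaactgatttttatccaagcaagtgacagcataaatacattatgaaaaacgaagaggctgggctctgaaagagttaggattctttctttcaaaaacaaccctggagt
Ass1: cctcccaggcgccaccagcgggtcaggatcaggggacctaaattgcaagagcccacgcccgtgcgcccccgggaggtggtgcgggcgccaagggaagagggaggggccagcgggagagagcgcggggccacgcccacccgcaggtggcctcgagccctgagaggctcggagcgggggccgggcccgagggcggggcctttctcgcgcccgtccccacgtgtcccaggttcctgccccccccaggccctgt
The 250 bases before the RefSeq start were searched on both strands for TTGCNNAA (C/EBP), TGACGTCA (CRE), CTTTGA (TCF/LEF), CAAAGTCCA (HNF4) and CCAAT. The capitals in the Nags stretch are a TCF/LEF match on the minus strand, 203 bases before the start. CTTTGA or its complement was present in 13.8% of the 32851 windows of all genes searched in the same way. The only other match among the members' windows was a CCAAT in that of Slc25a13, 22 bases before its start, a motif held by 33.9% of all windows. Shares for the other motifs were 9.56% for C/EBP, 1.55% for CRE and 0.384% for HNF4, and these letters were not in the members' windows. A match is a description of the letters and no evidence of binding. The windows also differed in base composition, with G and C at 55.6% for Nags, 43.6% for Otc and 75.6% for Ass1. These shares and the search cover 250 bases, whereas the printed Otc stretch has 175.

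Levels can be compared between genes only per length, and were therefore divided by the exon length of each gene. In CD Vec livers, Ass1 had the highest level of the 7, at 944 ± 390 CPM per kb (SD, n = 3, as for each value here). Cps1 followed at 478 ± 101.2 CPM per kb, and its mice overlapped those of Ass1. Asl at 257 ± 39.4 and Otc at 222 ± 17.5 CPM per kb did not differ beyond the spread between mice. The carriers came next, also overlapping each other, with 100.4 ± 9.55 CPM per kb for Slc25a15 and 94.2 ± 17.9 CPM per kb for Slc25a13. Nags was the lowest at 42.9 ± 3.62 CPM per kb, and no mouse reached the level of either carrier. In CD c-MET/β-cat livers this ladder was compressed. Ass1 led at 176 ± 101.8 CPM per kb, Otc was last at 34.7 ± 18.1 CPM per kb, and each member overlapped its neighbor in the order. Nags was no longer last there, at 64.8 ± 25.7 CPM per kb, above the mean of Cps1 at 55.6 ± 32.7 CPM per kb but within its spread. On LPD the order of CD Vec was largely kept, with Ass1 first, overlapping Cps1, and Nags last and apart from Slc25a15, in Vec and c-MET/β-cat livers alike.

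**Figure D1:**
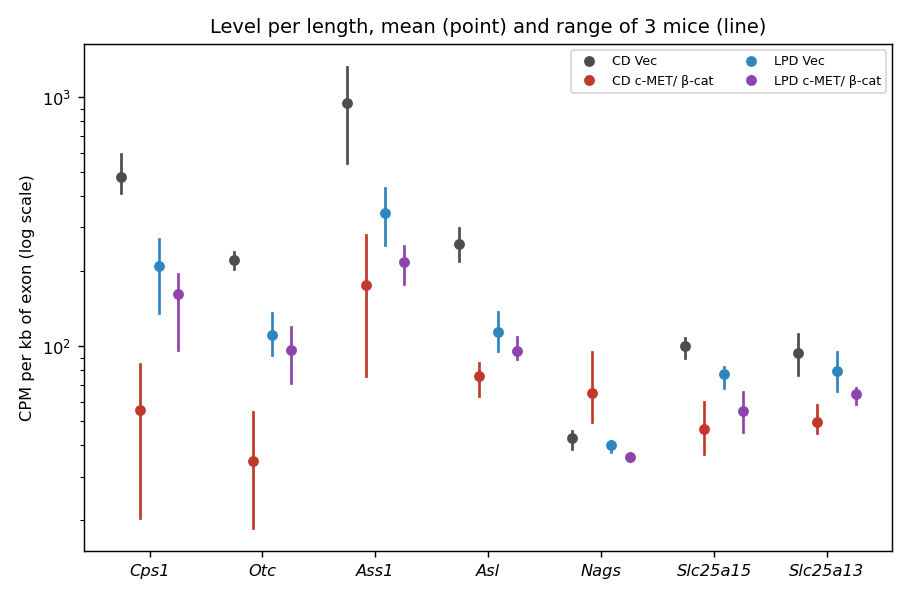
Level of each gene in CPM per kb of exon on a log scale, with the mean of 3 mice as a point and their range as a line, colored by group. In CD Vec the enzymes span 222 to 944 CPM per kb and Nags lies at 42.9, whereas in CD c-MET/β-cat all 7 means lie between 34.7 and 176.

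c-MET/β-cat livers were compared with Vec livers on CD to ask how the oncogenes altered the cycle on normal chow. The 4 enzymes of the cycle measured here and both carriers were lower, and Nags was higher. Cps1 had the largest fold change of the 7 genes, Otc and Ass1 came next, and Asl and then the carriers followed. The order of Otc and Ass1 was not firm, since Ass1 had the larger fold change without CD c-MET/β-cat replicate 1 (-2.41 against -2.38 for Otc) and without CD Vec replicate 2 (-2.71 against -2.63). A gene was called when its adjusted p in edgeR's quasi-likelihood test was under 0.05, and fold changes of CPM are from that fit. By this rule 6 of 7 members were called lower, against 16.7% of the 13947 genes tested, and 1 of 7 was called higher, against 18.7%. The median log2 fold change of the members was -1.75, and that of all genes tested was -0.01.

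Cps1, the entry enzyme of the cycle, had 2367, 2291 and 3301 CPM in CD Vec mice 1, 2 and 3, and 339, 114 and 474 CPM in CD c-MET/β-cat mice. The groups lay far apart, and the lowest oncogene liver, mouse 2, held 4.29% of the CD Vec mean. The log2 fold change was -3.10 ± 0.48 (SE; 8.59-fold lower; adjusted p = 0.00058). Otc had 473, 554 and 519.8 CPM in CD Vec and 43.3, 72.1 and 126 CPM in CD c-MET/β-cat. Here mouse 1 was the lowest and mouse 3 the highest, and the log2 fold change was -2.68 ± 0.34 (SE; 6.41-fold lower; adjusted p = 0.00017). The order of the 3 oncogene livers thus differed between the 2 mitochondrial enzymes.

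The cytosolic enzymes fell as well. Ass1 had 1641, 921 and 2243 CPM in CD Vec and 293, 128 and 474 CPM in CD c-MET/β-cat. Its CD Vec mice spread more widely than those of any other member, yet the lowest of them lay above all oncogene livers (log2 fold change -2.42 ± 0.44 (SE), adjusted p = 0.0015). Asl had 532, 720.4 and 607 CPM in CD Vec and 206, 152 and 194 CPM in CD c-MET/β-cat. Asl was the most even of the enzymes between oncogene livers (log2 fold change -1.75 ± 0.18 (SE), adjusted p = 5.4e-05). Mouse 2 was the lowest oncogene liver for both genes, as it was for Cps1.

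The count of Ass1 is uncertain because of a near-identical copy. Gm5424 is annotated as a processed pseudogene on chromosome 10, and of the 1191 stretches of 50 bases in its transcript 911 (76.5%) also occur in Ass1 transcripts. How reads that fit both were counted is not given in the sources used here. Gm5424 held 517 ± 100.6 CPM in CD Vec and 124 ± 71.8 CPM in CD c-MET/β-cat (SD, n = 3 each), and between 20.99% and 30.9% of the counts of the pair in the 12 livers. With its counts added to those of Ass1, the log2 fold change on CD was -2.33 (adjusted p = 0.0014).

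The carriers had the smallest fold changes of the genes that were lower. Slc25a15, the ornithine-citrulline carrier, had 355, 308 and 371 CPM in CD Vec and 150.0, 126 and 204 CPM in CD c-MET/β-cat (log2 fold change -1.10 ± 0.19 (SE), adjusted p = 0.0010). Slc25a13 had 292, 239 and 350.5 CPM in CD Vec and 181, 143 and 140.2 CPM in CD c-MET/β-cat (log2 fold change -0.93 ± 0.18 (SE), adjusted p = 0.0020). For both carriers each oncogene liver lay below each CD Vec liver. Their 95% intervals, from -1.52 to -0.69 for Slc25a15 and from -1.32 to -0.54 for Slc25a13, did not reach those of Cps1 (-4.16 to -2.05) and Otc (-3.42 to -1.94). The intervals of Ass1 (-3.39 to -1.46) and Asl (-2.15 to -1.35) overlapped that of Slc25a15 and not that of Slc25a13.

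Nags had 78.8, 92.8 and 89.7 CPM in CD Vec and 192, 100.6 and 102 CPM in CD c-MET/β-cat. All oncogene livers lay above all CD Vec livers, but mouse 1 was at 219.95% of the CD Vec mean, whereas mice 2 and 3 were at 116% and 117%. The log2 fold change was 0.59 ± 0.21 (SE; 95% interval 0.14 to 1.05; adjusted p = 0.042). Without CD c-MET/β-cat replicate 1 the log2 fold change was 0.22 (adjusted p = 0.13). Nags was called in 2 of 12 fits that each left out 1 library, where its adjusted p ranged from 0.018 to 0.13, and was not called with the replicate block (adjusted p = 0.074) or in the 2-group fit (adjusted p = 0.17). Nags also overlaps Gm11586, an antisense gene, and the strand setting of the counting is not given in the sources used here, so reads of the pair cannot be told apart.

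**Figure D2:**
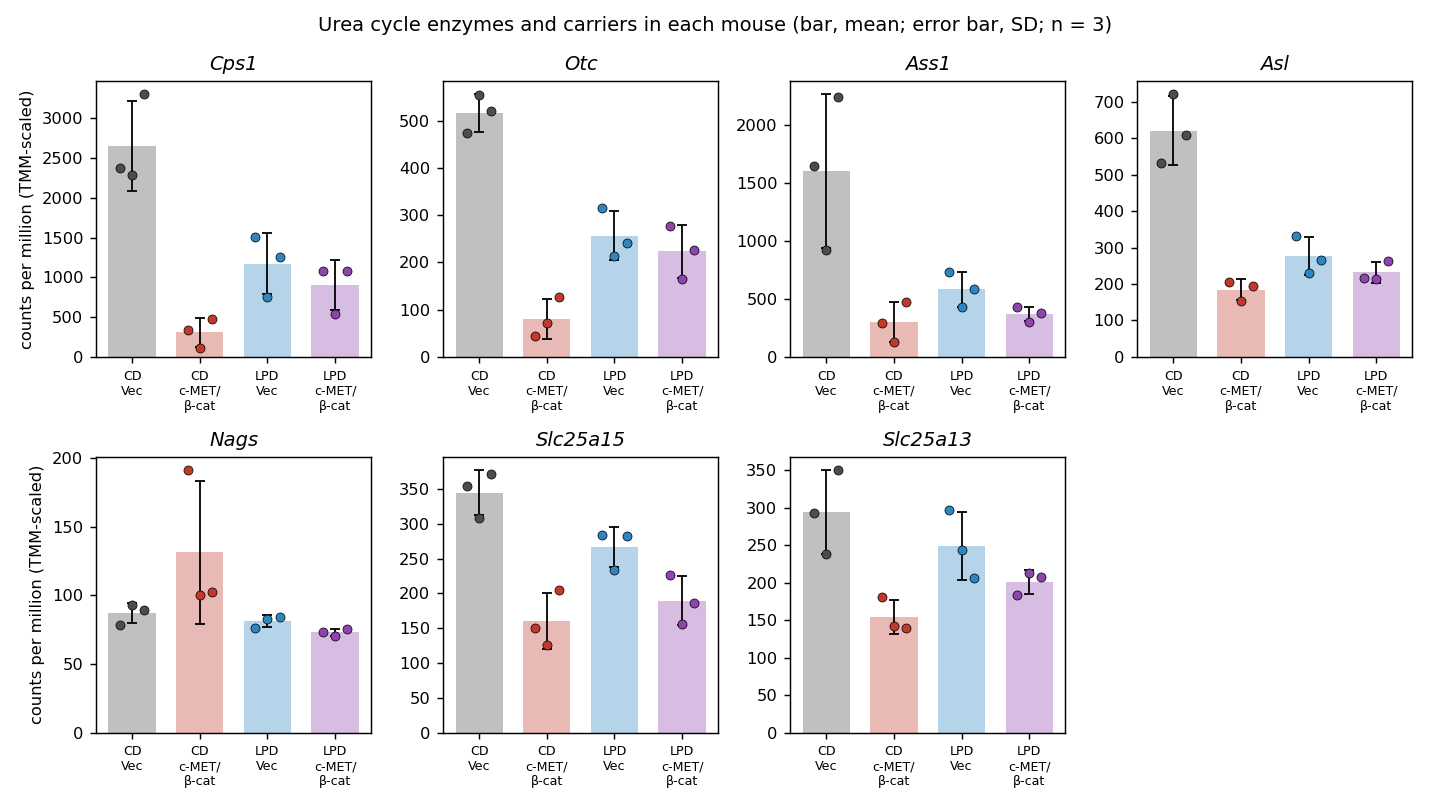
TMM-scaled CPM of each gene in every mouse (points), with the mean (bar) and SD (error bar) of 3 mice per group. The 3 CD c-MET/β-cat points lie below the 3 CD Vec points for 6 genes and above them for Nags, where 1 mouse at 192 CPM stands apart.

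Ratios within a library do not depend on how libraries are scaled, and 3 pairs of neighboring steps were formed after the values had been seen. The ratio of Otc to the carrier that supplies its ornithine, Slc25a15, in CPM per kb, was 2.24 ± 0.37 (SD, n = 3) in CD Vec, 0.728 ± 0.26 in CD c-MET/β-cat, 1.42 ± 0.19 in LPD Vec and 1.73 ± 0.14 in LPD c-MET/β-cat. The ratio of Ass1 to Slc25a13 was 9.74 ± 2.39, 3.62 ± 2.35, 4.35 ± 0.99 and 3.42 ± 0.85 in the same order of groups. The ratio of Cps1 to Nags, the enzyme that makes its activator, was 11.1 ± 2.22, 0.916 ± 0.68, 5.31 ± 1.93 and 4.46 ± 1.46. For each of the 3 ratios, all CD c-MET/β-cat livers lay below all CD Vec livers, with differences of -1.68, -1.61 and -3.84 on the log2 scale. All LPD Vec livers lay below all CD Vec livers as well, with differences of -0.65, -1.16 and -1.12, so that this separation was not particular to the oncogenes. Because the pairs were chosen with the fold changes known, these values are a description with no test.

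The columns of the deposited table carry dataset numbers that fall into 3 runs, which the labels do not explain. The first run holds CD c-MET/β-cat livers 1 and 2 alone, the third holds LPD Vec liver 1 with CD Vec livers 1 and 2, and the second holds the other 7. Within the second run, CD c-MET/β-cat mouse 3 against CD Vec mouse 3 gave log2 differences of -2.80 (Cps1), -2.04 (Otc), -2.24 (Ass1) and -1.64 (Asl) for the enzymes, and of -0.86 for Slc25a15, -1.32 for Slc25a13 and 0.19 for Nags, with no replicate behind them. The signs were those of all libraries together. With the runs as a term in the fit, Otc (log2 fold change -1.89, adjusted p = 0.022) and Asl (-1.52, adjusted p = 0.017) were called and the other 5 were not. Of all 13947 genes tested, 4933 were called without the term and 945 with it. With the term, the CD c-MET/β-cat level rests on mouse 3, since livers 1 and 2 make up the first run. In that fit the log2 fold change was -2.46 for Cps1 (adjusted p = 0.078), -1.83 for Ass1 (adjusted p = 0.11), -1.07 for Slc25a13 (adjusted p = 0.066), -0.76 for Slc25a15 (adjusted p = 0.13) and 0.17 for Nags (adjusted p = 0.83).

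On LPD, c-MET/β-cat livers were compared with Vec livers for the same question under restricted protein. None of the 7 members was called, against 1.32% of all genes tested. Cps1 had 1504, 756 and 1257 CPM in LPD Vec and 1081, 536 and 1084 CPM in LPD c-MET/β-cat, so that the groups overlapped (log2 fold change -0.38, 95% interval -1.36 to 0.60). Otc had 315, 215 and 240.5 CPM in LPD Vec and 278, 165 and 227 CPM in LPD c-MET/β-cat, again with overlap (-0.20, 95% interval -0.90 to 0.50). Asl overlapped too, with a log2 fold change of -0.25 (95% interval -0.64 to 0.14). These intervals leave room for moderate changes in either direction.

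Ass1, Slc25a15 and Nags were separated between all mice of the LPD groups without passing the test. Slc25a15 had 284, 233 and 282 CPM in LPD Vec and 226, 156 and 186 CPM in LPD c-MET/β-cat (log2 fold change -0.50 ± 0.19 (SE), unadjusted p = 0.023, adjusted p = 0.32 by edgeR). It was the only member with an unadjusted p under 0.05 in this comparison. Ass1 had 735, 434 and 584 CPM in LPD Vec and 427, 301 and 381 CPM in LPD c-MET/β-cat (log2 fold change -0.66, 95% interval -1.58 to 0.26). Nags had 76.6, 83.0 and 84.5 CPM in LPD Vec and 73.2, 70.5 and 75.9 CPM in LPD c-MET/β-cat (-0.15, 95% interval -0.60 to 0.30). DESeq2 called 0 of the 7 as well, against 497 of all 13947 genes. Within the second run of dataset numbers, 3 c-MET/β-cat against 2 Vec livers gave log2 differences of -0.06 to -0.46 for the 7 genes.

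**Figure D3:**
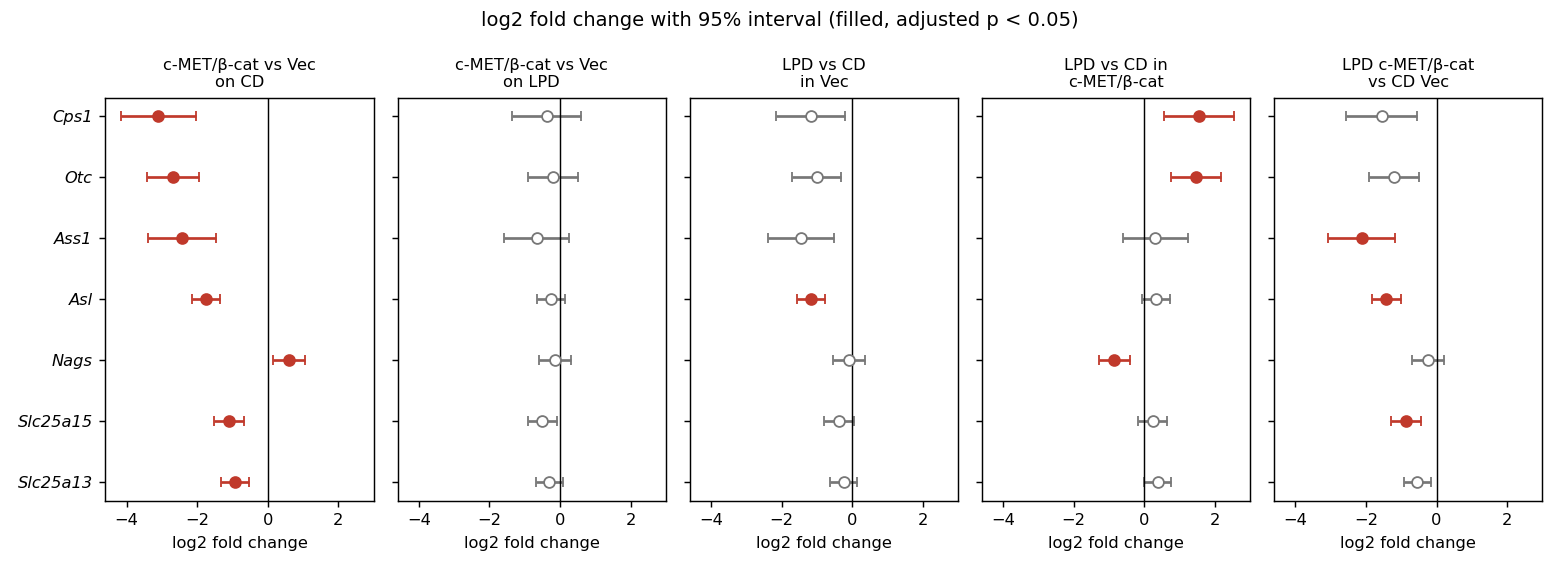
Fitted log2 fold change of each gene with its 95% interval in 5 comparisons; filled red points had an adjusted p under 0.05 and open gray points did not. On CD, 6 genes lie left of 0 and Nags lies right of it, on LPD no point is filled, and between diets in c-MET/β-cat livers Cps1 and Otc lie to the right and Nags to the left.

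The effect of LPD alone was read from Vec livers. Asl was the only member called, as lower, against 0.122% of all genes. Asl had 333, 231 and 265 CPM in LPD Vec against 532, 720.4 and 607 CPM in CD Vec (log2 fold change -1.17 ± 0.18 (SE), adjusted p = 0.026), and the groups did not overlap. This call was lost when CD Vec replicate 2 or 3 or LPD Vec replicate 2 or 3 was left out, with an adjusted p of 0.062 to 0.15, with the replicate block (adjusted p = 0.061), in the 2-group fit (adjusted p = 0.068) and with the run term (adjusted p = 0.075; within the second run, LPD Vec livers 2 and 3 against CD Vec liver 3 differed by -1.30). Ass1 (-1.46, 95% interval -2.39 to -0.52, adjusted p = 0.20, but 0.019 in DESeq2, which called it), Cps1 (-1.18, 95% interval -2.17 to -0.19, adjusted p = 0.38) and Otc (-1.01, 95% interval -1.71 to -0.30, adjusted p = 0.25) had negative estimates of like size that did not pass. For these 3 genes every LPD Vec liver lay below every CD Vec liver. The 3 remaining members had log2 fold changes of -0.37 for Slc25a15, -0.24 for Slc25a13 and -0.10 for Nags.

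Between diets in c-MET/β-cat livers, 2 of 7 members were called higher on LPD, against 8.66% of all genes, and 1 was called lower, against 11.3%. Cps1 was higher on LPD by 1.54 ± 0.46 (SE) on the log2 scale (adjusted p = 0.034), and the LPD livers with 1081, 536 and 1084 CPM all lay above the CD livers with 339, 114 and 474 CPM. Otc was higher by 1.47 ± 0.33 (SE; adjusted p = 0.0094). Nags was lower on LPD (log2 fold change -0.85 ± 0.21 (SE), adjusted p = 0.015), and mouse 1 on CD again had the most extreme value. Without that mouse the log2 fold change of Nags was -0.47 (adjusted p = 0.012). The call of Cps1 was lost without CD c-MET/β-cat liver 1 or 2 or LPD c-MET/β-cat liver 1 or 3 (adjusted p = 0.055 to 0.10), whereas Otc and Nags kept theirs in all 12 such fits. The call of Cps1 was also lost with no filter on low counts (adjusted p = 0.062) and in the 2-group fit (adjusted p = 0.085), as was that of Nags in the 2-group fit (adjusted p = 0.062). The other members did not pass. Asl at 218, 214 and 264 CPM on LPD lay above its CD values with a log2 fold change of 0.33 (95% interval -0.06 to 0.72), and Slc25a13 did so with 0.38 (95% interval -0.01 to 0.77). Ass1 (0.31, 95% interval -0.60 to 1.22) and Slc25a15 (0.24, 95% interval -0.18 to 0.65) overlapped between diets. Within the second run of dataset numbers, the 3 LPD livers against CD c-MET/β-cat mouse 3 gave 0.86 for Cps1, 0.79 for Otc and -0.48 for Nags. Without the runs in the fit 2784 of all 13947 genes were called. With the runs in the fit 618 were, and none of the 7. The signs of Ass1 and Slc25a15 turned in that fit, to -0.36 and -0.11.

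The injection by diet interaction asks whether the difference between c-MET/β-cat and Vec livers varied with diet. It is the log2 fold change on LPD minus that on CD. The study reported less tumor burden on LPD at this harvest. Proliferation markers summed to 100.5 to 142 CPM in CD c-MET/β-cat and to 13.4 to 41.5 CPM in LPD c-MET/β-cat livers. The part of tumor content in the interaction and in the comparison between diets above was not tested. By the interaction test, members were counted as before. The interaction was called as higher for 3 of 7 members, against 4.49% of all genes (4.42% were called lower). The interaction was 2.72 ± 0.64 (SE; adjusted p = 0.026) for Cps1 and 2.48 ± 0.46 (SE; adjusted p = 0.011) for Otc. For Asl it was 1.498 ± 0.26 (SE; adjusted p = 0.0075). The difference had a positive sign also in Ass1 (1.77, adjusted p = 0.086), Slc25a13 (0.62, adjusted p = 0.14) and Slc25a15 (0.61, adjusted p = 0.18) and a negative sign in Nags (-0.75, adjusted p = 0.13), none of them called. Ass1 was called with the replicate block (adjusted p = 0.026), in DESeq2 (adjusted p = 0.022) and without CD c-MET/β-cat replicate 3 (adjusted p = 0.030). The calls of Otc and Asl held in all 12 fits that left out 1 library, whereas Cps1 kept its call in 7. It was lost without CD Vec replicate 3, LPD Vec replicate 2 or 3, or LPD c-MET/β-cat replicate 1 or 3. In each of these fits 2 of 7 members were called, and 397 to 1075 of all 13947 genes. With the runs as a term no interaction of a member was called, against 85 of all genes. The values were then 2.10 for Cps1 (adjusted p = 0.27), 1.77 for Otc (adjusted p = 0.11) and 1.36 for Asl (adjusted p = 0.11). Within the second run the interaction was 2.62 for Cps1, 1.99 for Otc and 1.55 for Asl. The Vec baseline on LPD enters these values, and in LPD Vec livers the means of Cps1, Otc, Ass1 and Asl were 36.5% to 49.8% of those in CD Vec, with Asl alone called.

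LPD c-MET/β-cat livers were therefore also set against CD Vec livers. Ass1 (log2 fold change -2.12 ± 0.44 (SE), adjusted p = 0.019), Asl (-1.42 ± 0.18 (SE), adjusted p = 0.0020) and Slc25a15 (-0.87 ± 0.19 (SE), adjusted p = 0.025) were called lower, 3 of 7 members against 2.06% of all genes. Every member had all 3 LPD c-MET/β-cat livers below all CD Vec livers. Cps1 (-1.56, adjusted p = 0.080), Otc (-1.21, adjusted p = 0.057), Slc25a13 (-0.55, adjusted p = 0.11) and Nags (-0.25, adjusted p = 0.59) did not pass. DESeq2 called Cps1 (adjusted p = 0.0059), Otc (adjusted p = 0.0045) and Slc25a13 (adjusted p = 0.040), the 2-group fit called Cps1 (adjusted p = 0.046) and Otc (adjusted p = 0.032), and the replicate block called Cps1 (adjusted p = 0.017). Asl was called in all 12 fits that left out 1 library. Ass1 and Slc25a15 each lost the call in 4 of them, those without CD Vec liver 1 or 3 or LPD c-MET/β-cat liver 2 or 3, where their adjusted p reached 0.0998 and 0.13. Within the second run, the differences were -2.62 for Ass1, -1.40 for Asl and -0.99 for Slc25a15. With the runs as a term Asl was called (-1.26, adjusted p = 0.044), and Ass1 (-2.19, adjusted p = 0.067) and Slc25a15 (-0.87, adjusted p = 0.099) were not. Slc25a15 was also not called with total counts as the scaling (-0.66, adjusted p = 0.054). This comparison shares its groups with those above and is no independent evidence.

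Over the 7 members, the mean log2 ratio of each liver to the CD Vec mean placed CD c-MET/β-cat mouse 2 lowest at -2.17, followed by mice 1 and 3 at -1.60 and -1.34. LPD c-MET/β-cat livers lay at -0.999, -1.38 and -1.03, and LPD Vec livers at -0.55, -1.02 and -0.79. The c-MET/β-cat livers thus overlapped between diets, as did the 2 LPD groups. Over the 6 members other than Nags, the c-MET/β-cat livers lay at -2.06, -2.56 and -1.60 on CD and at -1.12, -1.56 and -1.17 on LPD, without overlap but with little space between the nearest livers. In each LPD liver Ass1 was the member furthest below its CD Vec mean, at -1.03 to -2.32. In CD c-MET/β-cat livers the lowest member was Otc in mouse 1 and Cps1 in mice 2 and 3.

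Genes that share the pattern of the members were sought by the Pearson correlation of log2 CPM with the mean standardized profile of the 7 over the 12 libraries, among genes of at least 5 CPM. The 6 closest were Dmgdh (r = 0.992), a mitochondrial enzyme of choline breakdown, Adh5 (0.974), Gm5424 (0.966), the Ass1 pseudogene described above, Aass (0.963), the entry enzyme of lysine breakdown, Gnmt (0.962), glycine N-methyltransferase, and Dlst (0.955), a subunit of the 2-oxoglutarate dehydrogenase complex. Dmgdh had 682 ± 54.2 CPM in CD Vec, 196 ± 54.7 in CD c-MET/β-cat, 384 ± 58.3 in LPD Vec and 267 ± 40.4 in LPD c-MET/β-cat (SD, n = 3 each). The differences between groups enter these correlations, which were not split into parts within and between groups.

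The supply of nitrogen and bicarbonate to the cycle was examined on CD in 7 genes, of which 4 were called lower and 1 higher, against 16.7% and 18.7% of all genes, with a median log2 fold change of -0.58. Gls2, the liver glutaminase that releases ammonia next to CPS1, had 400.2, 326 and 466 CPM in CD Vec and 35.5, 19.4 and 84.0 CPM in CD c-MET/β-cat. Its log2 fold change, -3.10 ± 0.46 (SE; adjusted p = 0.00046), was as large as that of Cps1. Car5a, the mitochondrial carbonic anhydrase that supplies bicarbonate to CPS1, fell by 1.59 on the log2 scale (adjusted p = 0.0017), and Gpt, an alanine aminotransferase, fell by 0.99 (adjusted p = 0.0013). Glud1, glutamate dehydrogenase, was higher by 0.50 (adjusted p = 0.028).

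Routes that use arginine and ornithine outside the cycle were examined in the same way. Of 8 genes, 3 were called higher on CD, against 18.7% of all genes, and 2 lower, which is near the 16.7% of all genes, with a median of 0.15. Oat, which diverts ornithine to glutamate, had 461, 526 and 819.99 CPM in CD Vec and 1565, 1438 and 2831 CPM in CD c-MET/β-cat, so every oncogene liver exceeded every control (log2 fold change 1.69 ± 0.31 (SE), adjusted p = 0.0015). Oat was also called on LPD, from 230.2, 145 and 189 CPM in Vec to 649, 407 and 469 CPM in c-MET/β-cat (1.43 ± 0.31 (SE), adjusted p = 0.046). Aldh18a1, which makes the precursor of proline and ornithine from glutamate, rose by 2.81 (adjusted p = 0.00077), from 1.66 ± 0.83 to 11.7 ± 0.84 CPM. Nos2, the inducible nitric oxide synthase (3.56, adjusted p = 0.0088), was called higher at levels under 1 CPM in both groups. The genes called lower were Azin1, an antizyme inhibitor that favors polyamine synthesis (-0.94, adjusted p = 0.00072), and Agmat, agmatinase (-0.90, adjusted p = 0.0010).

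Among 13 related carriers and transporters, 11 were tested, and 2 were called higher and 4 lower on CD. The former is the share of all genes called higher (18.7%), and 16.7% of all genes were called lower. Slc7a1, a cationic amino acid transporter, rose by 2.72 (adjusted p = 0.0041), and Rhbg, an ammonia channel, by 3.44 (adjusted p = 5.6e-05). Slc38a4 and Slc38a3, which import neutral amino acids, fell by 1.49 (adjusted p = 0.00025) and 1.17 (adjusted p = 0.0024). Slc25a12, the paralog of citrin, had 12.8 ± 3.43 CPM in CD Vec and 15.1 ± 2.91 CPM in CD c-MET/β-cat and was not called (0.24, adjusted p = 0.41). The urea transporter Slc14a1 and the second ornithine carrier Slc25a2 were at mean levels of at most 0.42 CPM in each group and were not tested. In the pyrimidine branch, which makes its own carbamoyl phosphate, Cad, its first enzyme, was not called (-0.28, adjusted p = 0.44) and Umps, its last, was lower (-0.84, adjusted p = 0.0078), 1 of 3 genes called. Both mitochondrial deacylases that act on urea cycle enzymes were lower, Sirt3 with a log2 fold change of -1.01 (adjusted p = 0.00036) and Sirt5 with -0.70 (adjusted p = 0.031), the latter with overlapping mice.

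Of 9 hepatic transcription factors and glucagon axis genes, 3 were called lower on CD and none higher, against 16.7% and 18.7% of all genes. Cebpa, whose product activates several urea cycle genes, had 769 ± 90.7 CPM in CD Vec and 343 ± 93.0 CPM in CD c-MET/β-cat (SD, n = 3 each; log2 fold change -1.16 ± 0.19 (SE), adjusted p = 0.00061). Foxa2 (-0.71, adjusted p = 0.0045) and Gcgr, the glucagon receptor (-0.80, adjusted p = 0.0049), were lower too. Hnf4a stood at 846 ± 209 CPM in CD Vec and 795 ± 66.1 CPM in CD c-MET/β-cat and was not called (-0.09, adjusted p = 0.74).

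The members were also set beside genes of the liver zones. Of 7 periportal genes other than the members, 6 were called lower on CD, against 16.7% of all genes, and 1 higher, with a median log2 fold change of -2.28 (Gls2, described above, belongs to both lists, as Oat and Rhbg belong to the pericentral list). Cyp2f2, a periportal cytochrome P450, fell by 4.39 (adjusted p = 2.0e-06) from 1351 ± 167 to 64.5 ± 20.6 CPM, and Hal, histidine ammonia lyase, fell by 3.36 (adjusted p = 3.3e-05). Cdh1 (E-cadherin) was the gene called higher (2.58, adjusted p = 0.00029). On LPD none of the 7 was called, where only 1.32% of all genes were called in either direction. Of 9 pericentral genes, 6 were called higher on CD, against 18.7% of all genes, with a median of 2.63, and 5 on LPD, against 1.15% of all genes called higher there, with a median of 1.43. Glul had 875 ± 125 CPM in CD Vec, 7524 ± 1002 in CD c-MET/β-cat, 1067 ± 132 in LPD Vec and 3497 ± 879 in LPD c-MET/β-cat, and was called on CD (3.10, adjusted p = 8.9e-06) and on LPD (1.71, adjusted p = 0.0024). Axin2 (3.26, adjusted p = 9.6e-06) and Lgr5 (3.38, adjusted p = 0.00050), both targets of Wnt/β-catenin signaling, were higher on CD. The pericentral cytochromes Cyp2e1 (-0.48, adjusted p = 0.24) and Cyp1a2 (0.17, adjusted p = 0.79) were not called.

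**Figure D4:**
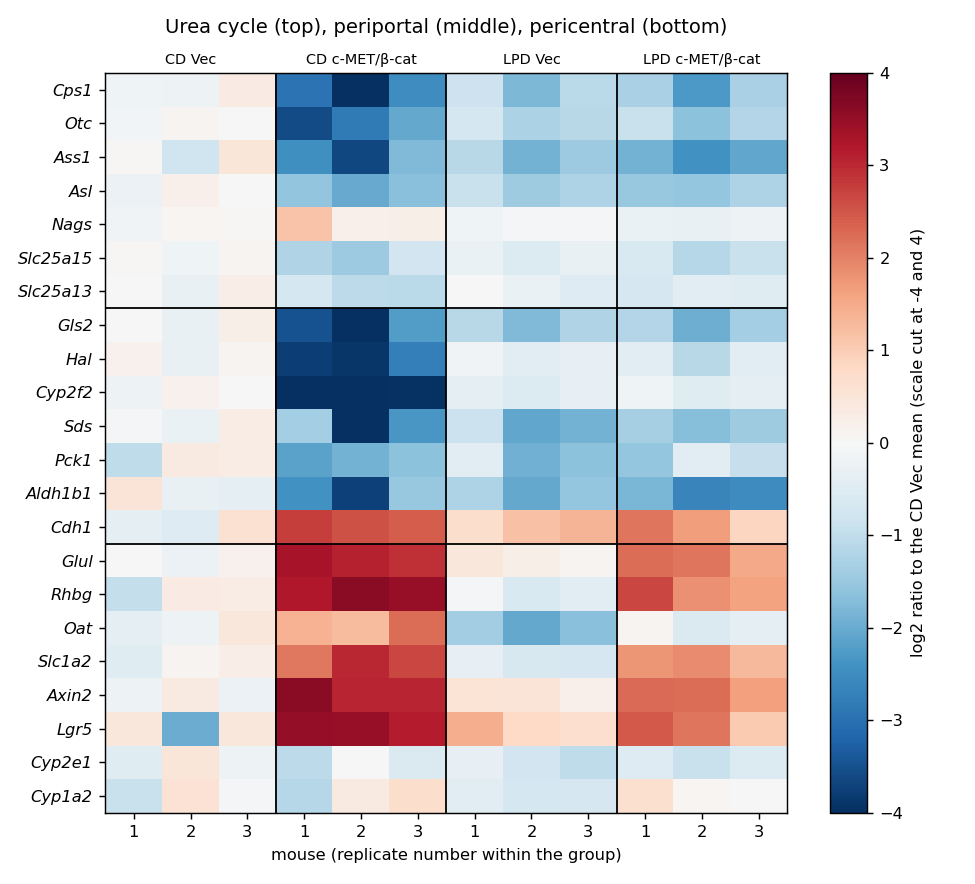
Log2 ratio of each gene to its CD Vec mean in every mouse (columns, by group), for the 7 members (top), 7 periportal genes (middle) and 8 of the pericentral genes (bottom); red is higher, blue lower, and the scale is cut at -4 and 4. The members and most periportal genes are blue in the 3 CD c-MET/β-cat columns except Nags and Cdh1, while Glul, Rhbg, Slc1a2, Axin2 and Lgr5 are red in c-MET/β-cat columns of both diets. Lgr5 also lies above its CD Vec mean in LPD Vec, where its 4.67 to 8.06 CPM overlap LPD c-MET/β-cat livers (6.03 to 16.1 CPM).

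Markers of cell content are given beside the CD comparison, in which 18.7% of all genes were called higher and 16.7% lower. The summed level of 8 hepatocyte markers ranged from 125159 to 127661 CPM in CD Vec and from 117022 to 139282 CPM in CD c-MET/β-cat, with 3 called lower and 1 higher, and Alb was not called (-0.20, adjusted p = 0.49). The 4 proliferation markers were all called higher, with sums of 2.33 to 9.95 CPM in CD Vec and 100.5 to 142 CPM in CD c-MET/β-cat. The 5 cholangiocyte markers summed to 36.8 to 46.3 CPM in CD Vec and 121 to 382 CPM in CD c-MET/β-cat. Of these, 2 were called higher (Spp1 and Krt19). Spp1 made up most of the sum, with means of 34.7 CPM in CD Vec and 253 CPM in CD c-MET/β-cat. The means of Epcam and Sox9 in CD c-MET/β-cat were 69.1% and 74.8% of those in CD Vec. That of Krt7 was 124%. Epcam, Sox9 and Krt7 were not called and their mice overlapped. In the same groups the 7 macrophage markers summed to 112 to 232 and 270.6 to 299 CPM with 2 called higher. The 5 stellate cell markers summed to 143 to 183 and 81.9 to 295 CPM with 2 called higher and 2 lower. The 5 endothelial markers summed to 89.9 to 187 CPM in CD Vec and 98.4 to 147 CPM in CD c-MET/β-cat, with 1 called lower. Neutrophil and T and NK cell markers summed to at most 15.7 CPM in any liver of these groups, with Ly6g at 0 counts in both groups and both tested neutrophil markers (S100a8 and S100a9) called higher. Of the 5 T and NK cell markers, Cd8a was called higher, with 0.11 ± 0.0063 CPM in CD Vec and 1.48 ± 0.44 CPM in CD c-MET/β-cat, and Cd4 was called lower, with 2.02 ± 1.14 and 0.67 ± 0.45 CPM and overlapping mice. The part of these markers in the fall of the members was not tested. In LPD c-MET/β-cat the hepatocyte sum was 83660 to 118401 CPM, the proliferation sum 13.4 to 41.5 CPM and the cholangiocyte sum 40.8 to 52.7 CPM.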

How the data were processed

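Liver RNA-seq was analysed for 12 mice in 4 groups of 3, assigned from the titles in the labels. The values are integer read counts per gene, deposited by the authors without normalization. Per the labels and the methods of the study, reads were aligned to mm10 with HISAT2 and counted with featureCounts under Entrez identifiers. Versions, strand setting and the handling of reads with several matches are not given in the sources used here. The labels describe ribosomal RNA depletion, whereas the methods describe selection of mRNA. Totals were 19476209 to 31990267 counts per library, and intervals cover the spread between these mice only.

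Symbols came from RefSeq (25275 of 27179 genes) and GENCODE M21 (17), 93.1% in all, and exon lengths from GENCODE M21 transcripts with a RefSeq accession. Counts were tested in R 4.3.3 with edgeR 4.0.16 (TMM factors, filterByExpr, robust quasi-likelihood) in 1 fit of all 4 groups, with Benjamini-Hochberg adjustment over 13947 genes and calls at an adjusted p under 0.05. The SE was obtained from the fitted log2 fold change and its F statistic. CPM are TMM-scaled. Replicates of a group differed by at least 27.3 chi-square units per gene, so that no library was a copy of another in its group. Libraries of different groups were not compared in this way. The test was checked on simulated data with known changes. Alternatives were RLE factors, total counts, no low-count filter, DESeq2 1.42.0, 2-group fits, a replicate block, a term for dataset-number runs and leaving out each library. Adding Gm5424 to Ass1 was chosen after the data had been seen.

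The members and gene lists were chosen with earlier results of these data known. The text names 7 members of the cycle (another gene of that list and 2 of related lists are not reported here), from each other list at most 4 called genes by largest log2 fold change plus genes whose role is background to the cycle, and the 6 genes of most similar profile.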

Additional observations from a re-analysis of the deposited data

Results flagged for a closer look

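The effect of c-MET/β-cat against Vec differed between diets, by the edgeR interaction term (log2 fold change on LPD minus that on CD), in 16 of 60 tested genes of the cycle and its related lists, against 1243 of all 13947 genes tested (85 with the term for the dataset-number runs). Among the members it was 2.72 for Cps1 (adjusted p = 0.026), 2.48 for Otc (adjusted p = 0.011) and 1.498 for Asl (adjusted p = 0.0075). With the run term none of these 3 calls held, and Cps1 lost its call in 5 of 12 fits that left out 1 library. Positive values were also found for genes that were lower on CD, namely 2.97 for Gls2 (adjusted p = 0.017), 1.04 for Slc38a4 (adjusted p = 0.041), 0.79 for Sirt3 (adjusted p = 0.036), 1.01 for Cebpa (adjusted p = 0.035), 0.80 for Foxa2 (adjusted p = 0.047), 3.05 for Hal (adjusted p = 0.0032) and 4.46 for Cyp2f2 (adjusted p = 6.0e-05). Negative values were found for genes that were higher on CD, namely -3.11 for Aldh18a1 (adjusted p = 0.014), -3.74 for Slc7a1 (adjusted p = 0.018), -2.03 for Cdh1 (adjusted p = 0.026), -1.39 for Glul (adjusted p = 0.017), -2.40 for Lgr5 (adjusted p = 0.049) and -1.63 for Axin2 (adjusted p = 0.013). The interaction also takes in the Vec livers of both diets: mean levels in CD Vec and LPD Vec were 397 and 159 CPM for Gls2, 1.66 and 8.79 CPM for Aldh18a1, and 0.85 and 5.15 CPM for Slc7a1. Otc and Asl kept their calls in all 12 of those fits. The c-MET/β-cat groups also differed in tumor burden by the study's report, and its part in these values was not tested.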

How the results depend on the processing

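Numbers in parentheses are the genes called among all those tested in the same fit (13947, or 20160 with no low-count filter). The number of members called on CD was 7 (4933). It was 6 to 7 when 1 library was left out (4229 to 4746) and 2 with a term for the dataset-number runs (945). On LPD it was 0 (184), and 0 under every alternative (53 to 501). For diet in Vec livers it was 1 (43). It was 0 with the replicate block (16), with the run term (16) and in the 2-group fit (18). It was 2 with DESeq2 (339), and 0 to 1 with 1 library left out (4 to 105). For diet in c-MET/β-cat livers it was 3 (2784). It was 0 with the run term (618) and 1 in the 2-group fit (2204). With 1 library left out it was 2 to 3 (1595 to 3564). For the interaction it was 3 (1243). It was 0 with the run term (85) and 4 with DESeq2 (2083). With 1 library left out it was 2 to 4 (397 to 1400). For LPD c-MET/β-cat against CD Vec it was 3 (657). It was 1 with the run term (51), 5 in the 2-group fit (344) and 6 with DESeq2 (1241). With 1 library left out it was 1 to 4 (173 to 875). The sign turned in 4 of 833 refitted values, none of them called: Nags for diet in Vec (0.0078 with total counts), Ass1 for diet in c-MET/β-cat (-0.36 with the run term, -0.052 without CD c-MET/β-cat replicate 2, with a range of -0.052 to 0.81 over the livers left out) and Slc25a15 in the same comparison (-0.11 with the run term). Of the rest, 53 lost and 13 gained the call. The run term takes degrees of freedom and rests on few libraries, since 1 run holds CD c-MET/β-cat livers only. With that term the CD c-MET/β-cat level rests on mouse 3, the highest liver of its group for Cps1, Otc and Ass1. The fit is thus no check apart from the values of that mouse within the second run. The cause of the lost calls was not tested.

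Replicate numbers recur across groups, but over all genes tested same-numbered livers did not deviate together: the correlation of their deviations was over 0.1 in 2 of 18 pairs (-0.18 to 0.17), and 2 of 12 livers were closest to their own number. With the replicate block, 6 members were called on CD (4520 of all genes) and 0 on LPD (151). It called 0 members for diet in Vec (16) and 3 for diet in c-MET/β-cat (2380). For the interaction it called 4 (812), and for LPD c-MET/β-cat against CD Vec 4 (475). At these depths each member had at least 1497 counts in each library. Counting error bears most on Nags, the member with the fewest counts in all libraries but CD c-MET/β-cat 1 and 2. In those, Otc had the fewest, at 1499 and 1767.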

Other observations

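In all 4 groups, the liver numbered 2 had the lowest CPM of Cps1, Ass1 and Slc25a15, while Otc was lowest in mouse 1 of both CD groups and in mouse 2 of both LPD groups. Nothing in the labels gives the numbers a meaning.

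Spp1 and Col1a1 were uneven between the CD c-MET/β-cat livers, with 368, 280.3 and 111 CPM of Spp1 and 195, 151 and 23.2 CPM of Col1a1 in mice 1, 2 and 3. The mean log2 ratio of the 7 urea cycle members to CD Vec was -1.60, -2.17 and -1.34 in the same livers. Mice 1 and 2 are in the first run of dataset numbers and mouse 3 is in the second. Differences between these livers and between runs cannot be told apart here.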
